A study of Homo sapiens with 12 samples.

Results

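The baseline transcriptome of untreated HCT116 cells was described from the 3 libraries labelled as having had no treatment, out of the 12 libraries of the series, and across all 25733 genes of the deposited table. HCT116 is an established line of human colorectal carcinoma cells, which grow as an adherent epithelium. The study sequenced RNA from these cells in 4 groups of 3 libraries, without treatment, with TGF-β, with NH4Cl as a source of ammonia, and with both, and the treated groups were not used here. The cells came from a public repository and were grown in DMEM/F12 with fetal bovine serum, according to the study's methods. Total RNA was extracted with an RNeasy Plus Mini kit according to the labels, whereas the methods name a PureLink kit. The group is limited as a model in that it is a single cell line, and nothing states that its replicates came from separate cultures, so the spread between them may be technical.

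Epithelial cells are held together by adherens junctions, desmosomes and tight junctions and are supported by keratin filaments, with KRT8, KRT18 and KRT19 typical of simple epithelia such as the colon and KRT5 typical of stratified epithelia. Epithelial cells of the intestine are renewed from crypt stem cells under WNT signals, and cells that leave the crypt are restrained by TGF-β and BMP signals, which pass from serine/threonine kinase receptors to SMAD proteins. HCT116 cells are known for an activating mutation of CTNNB1, for defective DNA mismatch repair and for frameshift mutations in TGFBR2, none of which an RNA level shows.

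Levels are given as FPKM, fragments scaled by exon length and by a total per library, so that they can be compared between genes, and the 3 values of a gene are those of replicates 1, 2 and 3 in that order. The FPKM values corresponded to 16647681, 16700597 and 15298508 whole reads, and the totals they were divided by were 1.017, 1.029 and 0.969 times these reads, so the scaling itself differed between replicate 3 and the others. Replicate 3 stood apart from the other libraries. The chi-square statistic per gene, which averages 1 for counting error alone, averaged 2.29 between replicates 1 and 2, 29.1 between replicates 1 and 3, and 31.7 between replicates 2 and 3. Its medians were 0.793, 3.83 and 3.92. The value of 1 does not apply to them, since the statistic is skewed and its median for counting error alone lies below 1. On average, replicates 1 and 2 therefore differed by more than counting error, and replicate 3 differed from both by more than that. The FPKM values summed to 272371 and 267312 in replicates 1 and 2 and to 305984 in replicate 3. Genes of the mitochondrial genome took 10.98%, 11.5% and 17.7% of these sums. Scaling every library to the same sum, as in TPM, moved the median log2 difference of replicate 3 from the mean of replicates 1 and 2 from -0.02 to -0.20 over expressed genes, so small differences of replicate 3 depend on the scale. Stability results that rest on replicate 3 are given with and without it.

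A gene was called expressed where its FPKM was at least 1 in each of the 3 libraries. By this rule 11652 of 25733 genes (45.3%) were expressed, and 11900 genes had such a value in both libraries without replicate 3. Among protein-coding genes 10385 of 16234 (64.0%) were expressed, and the counts of expressed members of each gene list stand against that share. Of noncoding classes, 688 of 6111 long noncoding RNA genes and 486 of 2829 pseudogenes were expressed. Of the 36 genes of the mitochondrial genome, some of them protein-coding, 30 were expressed. Higher levels were reached by fewer genes, with 4245 genes at 10 FPKM or more in each library, 332 at 100 or more and 20 at 1000 or more. The median level, each gene taken at its mean over the 3 libraries, was 3.31 FPKM for protein-coding genes.

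At the other end, 120 genes (0.466%) were listed at 0 in all 3 libraries and 3911 genes were at or below 0.1 FPKM in all 3. The number at 0 depended on how many libraries were read, and it was 778 to 930 when only 2 of them were used. No gene of the table was at 0 in all 12 libraries of the series, and the table held 43.8% of the genes of GENCODE 29, so a gene that the table does not list was not analysed here. A count of 0 allows up to 3 reads, which for a gene with 1 kb of exon is 0.177, 0.175 and 0.202 FPKM in the 3 libraries. This limit covers counting error only.

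A low value did not always stand for a gene that cells do without. The ribosomal protein genes RPS10 and RPL17, each chosen after its values were seen, were listed at 0.351, 0.444 and 0.544 FPKM and at 2.51, 2.34 and 3.28 FPKM. The median was 264 FPKM for the 66 cytosolic ribosomal protein genes chosen by symbol, a set that leaves out RPL13A. The exons of RPS10 and RPL17 share 39.4% and 32.7% of their bases with exons of other annotated genes on the same strand. Across protein-coding genes the median level was 3.56 FPKM where no exon base was shared, 4.16 FPKM where up to 10% of them were, 1.66 FPKM from 10 to 50%, the class of these genes, and 0.109 FPKM from 50 to 90%. Whether shared exons lowered these values was not tested, and for genes of this kind only the listed value is given below. The counting was also not stated to use strand, so levels of genes that overlap on opposite strands are uncertain.

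**Figure D1:**
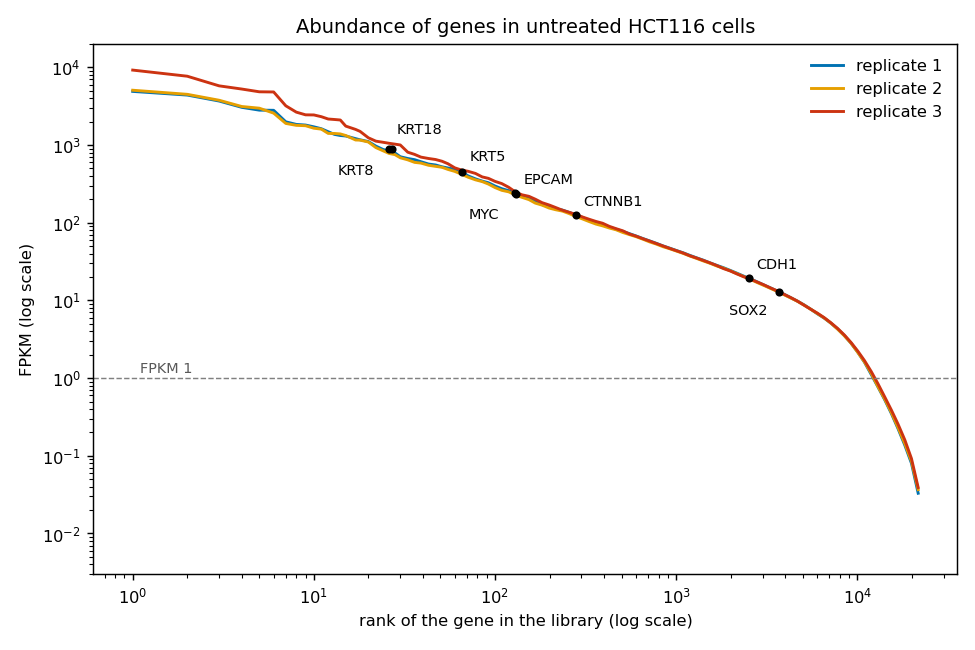
Level of each gene in FPKM (log scale) against its rank within a library (log scale), as a line for each of the 3 control libraries, with the mean level and rank of the 8 marker genes as points and the threshold of 1 FPKM as a dashed line. The lines of replicates 1 and 2 coincide, and that of replicate 3 lies above them among the most abundant genes.

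Transcripts were concentrated in few genes. The 100 most abundant genes held 32.5% ± 3.85 (SD, n = 3) of the summed FPKM, at 30.3% in each of replicates 1 and 2 and 36.9% in replicate 3. Without the genes of the mitochondrial genome the 100 most abundant genes held 24.2% of what was left. To reach 50% of the summed FPKM took 494, 505 and 320 genes.

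The most abundant transcripts came from the mitochondrial genome, which encodes subunits of the respiratory chain and its own ribosomal RNAs. MT-CO2, a subunit of cytochrome c oxidase, ranked highest with 4905, 5079.5 and 9226 FPKM. MT-CO1 had 4400.4, 4499 and 7695 FPKM and MT-ND4, a subunit of complex I, 2814, 2982 and 5782 FPKM. MT-ND4 held rank 5 in replicates 1 and 2 and rank 3 in replicate 3. MT-CO2, MT-CO1 and MT-ND4 were each highest in replicate 3. The ribosomal RNA MT-RNR2, the most abundant noncoding gene, had 1716, 1603 and 4823 FPKM, so that its order among the leading genes rests on replicate 3. The genes of the mitochondrial genome took 2.87%, 2.99% and 5.12% of the reads, a smaller share than of FPKM.

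Among genes of the nucleus, TMSB10 led with 2801, 2575 and 3201 FPKM. It encodes thymosin β10, a small protein that binds actin monomers. The translation elongation factor EEF1A1 followed with 1991, 1898 and 2318 FPKM, and then the ribosomal protein gene RPL13A with 1844, 1794 and 2133 FPKM. The ferritin light chain FTL had 1485, 1409.6 and 1633 FPKM, the glycolytic enzyme GAPDH 1209, 1162 and 1499 FPKM and the cytoplasmic actins ACTB and ACTG1 1166, 1138 and 1065 FPKM and 942, 920.2 and 1239.8 FPKM. The RNA-binding protein YBX1 had 1035, 997 and 1015 FPKM, and differed least between libraries among these leading genes. The ribosomal protein gene RPS2 had 1168, 1094 and 1349.7 FPKM.

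The 66 cytosolic ribosomal protein genes chosen by symbol, which leave out RPL13A, took 7.94%, 7.65% and 7.87% of the summed FPKM. A total of 65 of them were expressed, 51 at 100 FPKM or more in each library, against 1.29% of all genes, and none of the 65 differed 1.5-fold between its highest and lowest library, against 12.8% of expressed genes. Of 62 replication-dependent histone genes 16 were expressed, against 64.0% of all protein-coding genes, and their median was 0.518 FPKM, against 3.31 FPKM. Whether the library preparation captured histone RNA as it did that of other genes was not tested. Some pseudogenes of ribosomal proteins were as abundant as the ribosomal protein genes. RPS28P7, the most abundant noncoding gene of the nucleus, was listed at 1809, 1774 and 2164 FPKM, whereas its parent gene RPS28, chosen after its values were seen, was listed at 146, 131 and 151 FPKM. RPL9P9 had 614, 580.1 and 699.6 FPKM. Reads of such near-identical copies can be assigned to either, so the levels of both are uncertain.

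Transcripts of ribosomal proteins and of EEF1A1 are known to begin with a cytosine followed by a run of pyrimidines, the terminal oligopyrimidine tract through which their translation is regulated. Promoter sequences of RefSeq were matched by symbol on GRCh38.p14, each with 250 bases before and 50 after a gene's start. They were found for 53 of the 66 ribosomal protein genes chosen by symbol, with 66 starts, and RPL13A was not among these genes. The first base was a C followed by 4 bases that were each C or T in 39 of these 66 promoters (59.1%) and in 4.07% of all 35116 promoters of the table. The letters TATAAA lay 45 to 16 bases before the start on the gene's own strand in 3.03% and 2.38% of them, and on either strand in 6.06% and 3.01%. For the ribosomal protein genes these shares stand for 2 and 4 of 66 promoters. The letters TATATAAG do not hold TATAAA. They lay in that window on the gene's own strand in 2 of 66 ribosomal protein promoters (3.03%) and in 0.290% of all promoters. The 4 stretches below are shown because they belong to abundant genes of the nucleus, from 60 bases before to 20 bases after the start, with capitals for TATAAA or TATATAAG and for the pyrimidines at the start. EEF1A1 lies on the minus strand at chr6:73521013-73521092, RPLP0 on the minus strand at chr12:120201092-120201171, RPL13A on the plus strand at chr19:49487548-49487627 and TMSB10 on the plus strand at chr2:84905596-84905675.
EEF1A1: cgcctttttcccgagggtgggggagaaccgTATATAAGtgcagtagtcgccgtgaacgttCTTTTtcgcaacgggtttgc
RPLP0: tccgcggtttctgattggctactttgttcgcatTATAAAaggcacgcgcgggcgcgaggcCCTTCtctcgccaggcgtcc
RPL13A: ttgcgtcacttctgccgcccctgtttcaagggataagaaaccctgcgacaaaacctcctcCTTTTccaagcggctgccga
TMSB10: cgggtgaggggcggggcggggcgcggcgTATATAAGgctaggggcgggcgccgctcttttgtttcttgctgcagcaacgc
The pyrimidine start was present in EEF1A1, RPLP0 and RPL13A. In TMSB10 the first base of the RefSeq start is not a C. These matches describe letters in a window and were not tested for any effect on a level.

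All 8 marker genes were expressed, against 64.0% of all protein-coding genes. They were chosen with earlier results of these data known, so their passing does not check the label of the cells. KRT8 (ENSG00000170421, chr12:52897187-52949954 on GRCh38) had 808, 773 and 1054 FPKM and its filament partner KRT18 (ENSG00000111057, chr12:52948871-52952901) 794, 754 and 1137 FPKM. They ranked 27 and 26 by mean level among all genes. Their printed spans overlap, and whether this affected their listed levels was not tested. The epithelial adhesion molecule EPCAM (ENSG00000119888, chr2:47345158-47387601) had 244, 237 and 248 FPKM and ranked 129. The 3 libraries lay close together for EPCAM, and replicate 3 was the highest for KRT8 and KRT18. E-cadherin, the adhesion protein of adherens junctions, is encoded by CDH1 (ENSG00000039068, chr16:68737225-68835548), which had 17.4, 17.2 and 23.1 FPKM and ranked 2514. Its partner in the junction, β-catenin, is also the transcriptional mediator of WNT signals. Its gene CTNNB1 (ENSG00000168036, chr3:41194741-41260096) had 132, 129.7 and 114 FPKM and ranked 279. These 5 genes of epithelial filaments and adhesion were thus expressed, with CDH1 at a much lower level than EPCAM and CTNNB1.

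KRT5 (ENSG00000186081, chr12:52514575-52520687), a keratin of the basal cells of stratified epithelia, had 450.2, 439 and 481 FPKM and ranked 66. It was above EPCAM in all 3 libraries. SOX2 (ENSG00000181449, chr3:181711924-181714436), a transcription factor of pluripotent and foregut cells, had 12.9, 12.4 and 13.3 FPKM and ranked 3703. Neither gene is typical of the colonic epithelium, and both were well above the threshold in every library. The transcription factor MYC (ENSG00000136997), a known target of β-catenin, had 214, 212 and 286 FPKM and ranked 130, with its highest value in replicate 3.

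**Figure D2:**
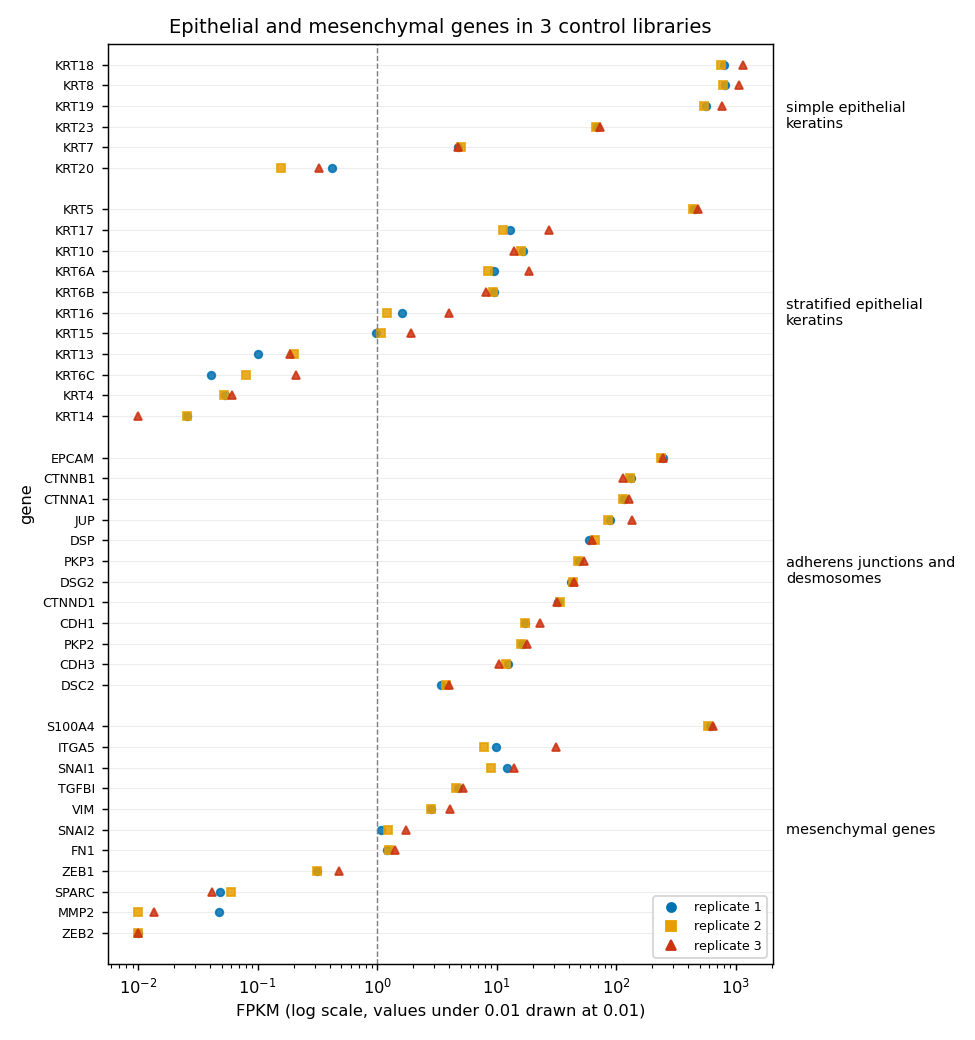
Level in FPKM (log scale, values under 0.01 drawn at 0.01) of every listed keratin, adherens junction and desmosome gene and mesenchymal gene in the 3 control libraries, with the threshold of 1 FPKM as a dashed line. KRT8, KRT18, KRT19 and KRT5 lie far above the other keratins, and all 12 junction genes lie above the threshold.

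Keratins were led by 4 genes. KRT8 and KRT18 held 58.5% ± 1.48 (SD, n = 3) of the summed FPKM of the 37 keratin genes of the table, and KRT8, KRT18, KRT19 and KRT5 together held 94.3% ± 0.051. The share of KRT8 and KRT18 was 57.6% without replicate 3. Among the 6 simple keratins 5 were expressed, against 64.0% of all protein-coding genes. KRT19 had 563, 537 and 764 FPKM, KRT23 68.3, 67.0 and 73.3 FPKM and KRT7 4.73, 5.02 and 4.72 FPKM. KRT20, a keratin of differentiated intestinal cells, was below the threshold in every library with 0.416, 0.158 and 0.329 FPKM. Of the 11 stratified keratins in the table, 6 were expressed. Next to KRT5 these were led by KRT17 with 13.02, 11.3 and 27.1 FPKM and KRT10 with 16.4, 16.05 and 14.0 FPKM. KRT14, with which KRT5 forms filaments in basal cells, was listed at 0.0259, 0.0255 and 0 FPKM, from 1, 1 and 0 reads. KRT5 was therefore abundant without its usual partner.

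All 12 genes of adherens junctions and desmosomes passed the threshold, against 64.0% of all protein-coding genes, with a median of 46.6 FPKM against 3.31 FPKM. CTNNA1, which links cadherins to actin, had 115, 114 and 128 FPKM, the plaque protein JUP 89.0, 85.3 and 136 FPKM and DSP, which anchors keratin to desmosomes, 58.9, 66.1 and 62.3 FPKM. JUP was highest in replicate 3, while the others varied less. P-cadherin, encoded by CDH3, had 12.5, 11.9 and 10.4 FPKM and was below CDH1 in each library. Of 13 tight junction genes 11 were expressed. The claudins that seal the space between cells were led by CLDN4 with 109.5, 100.4 and 154 FPKM, CLDN7 with 65.4, 64.9 and 89.5 FPKM and CLDN1 with 70.2, 69.6 and 55.5 FPKM, and CLDN2, which forms cation pores, was listed at 0.0346, 0.0854 and 0.119 FPKM. The scaffold gene TJP1 had 9.68, 10.2 and 9.39 FPKM.

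Genes of intestinal cells differed widely in level. Of 13 intestinal transcription factors in the table, 10 were expressed, beside 64.0% of all protein-coding genes. KLF5, a factor of dividing crypt cells, was the highest with 149, 144 and 194 FPKM. HNF4A had 27.6, 28.4 and 30.3 FPKM and CDX2, which specifies intestine, 13.2, 12.5 and 13.5 FPKM, whereas CDX1 had 3.76, 3.08 and 3.49 FPKM. ISX, a factor of the intestinal epithelium, stayed under 0.1 FPKM. Of 18 genes of differentiated intestinal cells in the table only 5 were expressed, against 64.0% of all protein-coding genes, and their median was 0.441 FPKM, against 3.31 FPKM. VIL1, which bundles actin in microvilli, had 84.3, 85.3 and 84.8 FPKM, the mucin gene MUC13 47.4, 44.7 and 46.7 FPKM and the goblet cell peptide TFF3 49.4, 42.4 and 139 FPKM. VIL1 and MUC13 were level over the libraries, and TFF3 was far higher in replicate 3. The Paneth cell defensin DEFA5 had 5.26, 2.72 and 4.06 FPKM. The secreted mucin MUC2 had 0.303, 0.372 and 0.639 FPKM, the fatty acid binding protein FABP1 0.0239, 0 and 0.0820 FPKM and CEACAM5, which encodes carcinoembryonic antigen, 0.0881, 0.0521 and 0.282 FPKM.

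Of 15 crypt stem cell genes 10 were expressed, near the 64.0% of all protein-coding genes. The negative regulator of WNT signals AXIN2 had 51.0, 51.1 and 53.9 FPKM, the stem cell factor ASCL2 55.8, 54.3 and 42.1 FPKM and SOX9 50.3, 50.1 and 61.8 FPKM. These 3 targets of the WNT pathway were at similar levels. LGR5, the receptor that marks crypt base columnar cells, had 1.47, 1.81 and 0.745 FPKM and fell under the threshold in replicate 3, so it was not called expressed. OLFM4 was listed at 0.0204, 0.0804 and 0 FPKM and PROM1 at 0.103, 0.141 and 0.0998 FPKM. The hyaluronan receptor CD44 had 14.95, 15.4 and 15.97 FPKM.

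Mesenchymal genes were few at high level. Of 11 in the table, 7 were expressed, close to the share among all protein-coding genes, with a median of 1.36 FPKM. S100A4, a calcium-binding protein also present in many carcinoma cells, had 611, 587 and 638 FPKM. No other member came near it. Vimentin, the filament protein of mesenchymal cells, had 2.84, 2.84 and 4.06 FPKM for VIM, and the repressor SNAI1 12.3, 8.94 and 14.0 FPKM. ITGA5, the fibronectin receptor subunit, had 9.86, 7.82 and 31.0 FPKM, with replicate 3 far above the others. ZEB1 was below the threshold with 0.314, 0.316 and 0.476 FPKM, and ZEB2 was listed at 0.00471, 0.00232 and 0 FPKM, from 2, 1 and 0 reads. CDH2, TWIST1 and TWIST2 were not listed in the table. Of 5 pluripotency genes in the table, SOX2, MYC and KLF4 were expressed and POU5F1 was not, with 0.591, 0.503 and 0.396 FPKM.

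Markers of other cell types were mostly below the threshold. In bulk RNA, fewer cells of a type and less RNA per cell cannot be told apart. None of the 8 blood and immune genes in the table was expressed, against 64.0% of all protein-coding genes, and 1 passed at 0.5 FPKM. Their summed level was 2.64, 1.67 and 2.96 FPKM, their most abundant gene was HBA1 with 1.13, 0.976 and 1.62 FPKM, and the T cell genes CD3D and CD3E had 0.127, 0 and 0.0726 FPKM and 0.104, 0.0819 and 0.119 FPKM. Of 6 endothelial genes only VWF, with 1.54, 1.66 and 3.90 FPKM, was expressed, the list summed to 2.15, 2.24 and 5.40 FPKM, and PECAM1 was listed at 0.0152, 0.00750 and 0.0522 FPKM. Of 9 fibroblast genes 2 were expressed and the list summed to 8.91, 9.35 and 11.8 FPKM. Its most abundant gene was LUM, a proteoglycan of connective tissue, with 6.56, 6.97 and 8.26 FPKM, while COL1A1 had 1.29, 1.36 and 2.14 FPKM and COL1A2, DCN and COL3A1 stayed under 0.1 FPKM in each library. The collagen partner COL1A2 had 0, 0 and 1 reads. Of 8 neural, liver and muscle genes in the table MBP and CKM were expressed, with 2.45, 2.47 and 2.54 FPKM and 2.00, 2.04 and 1.26 FPKM. The list summed to 7.31, 7.06 and 6.61 FPKM. At a threshold of 0.5 FPKM 5 of the 8 passed, beside 11395 of 16234 protein-coding genes. GFAP and RBFOX3 stayed under 0.1 FPKM. None of the genes on these lists of other cell types was at 0 in all 3 libraries.

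**Figure D3:**
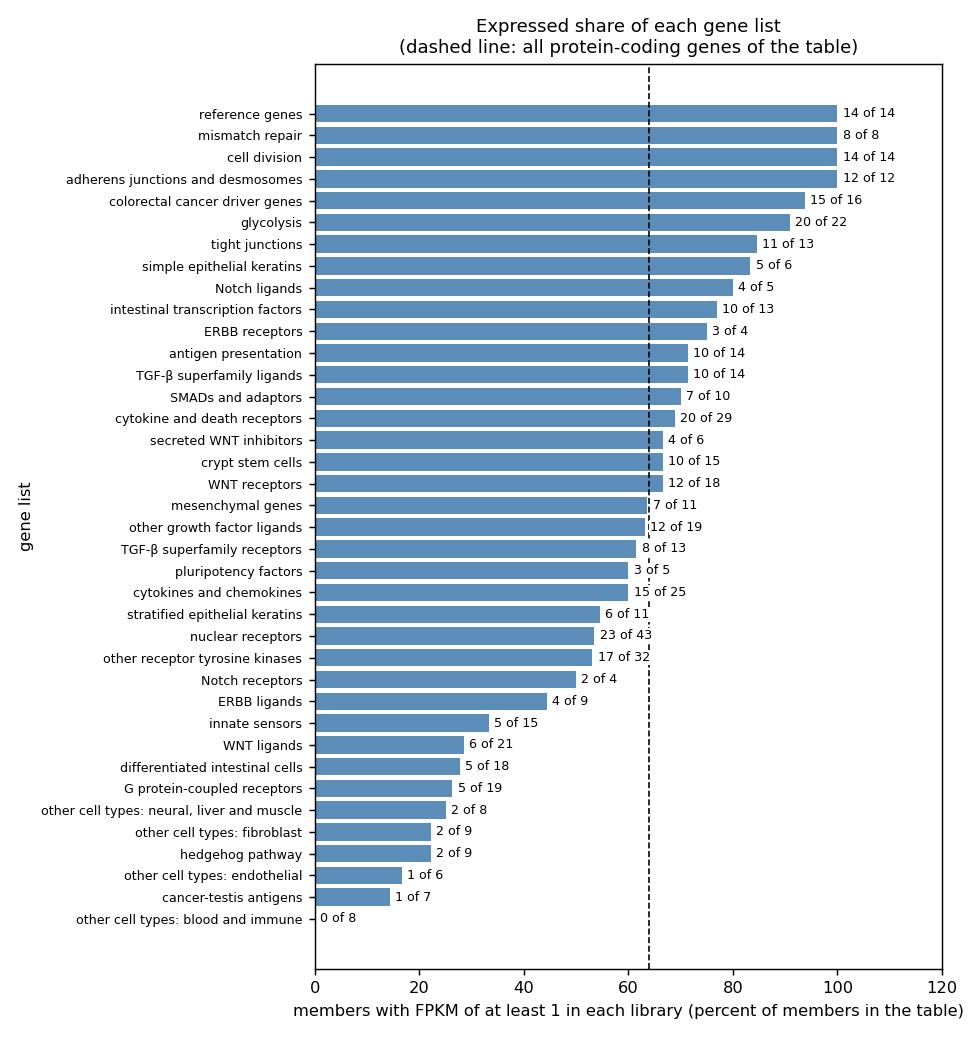
Percent of the members of each gene list in the table that had at least 1 FPKM in each control library, with the counts beside the bars and a dashed line at the 64.0% of all protein-coding genes. Reference, mismatch repair, cell division and adherens junction genes lie at the top, and markers of blood at the bottom, below the cancer-testis antigens.

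Among ligands of the TGF-β superfamily 10 of 14 in the table were expressed, near the 64.0% of all protein-coding genes. BMP4 was the highest with 134, 129 and 154 FPKM. INHBB, the βB subunit of activin and inhibin, had 58.2, 55.1 and 66.8 FPKM, TGFB1 43.0, 39.3 and 69.7 FPKM and BMP7 37.6, 37.8 and 29.1 FPKM. TGFB1 was higher in replicate 3 and BMP7 was lower there. TGFB2 had 2.05, 1.75 and 1.65 FPKM and TGFB3 0.264, 0.201 and 0.261 FPKM, so that TGFB1 was the main TGF-β transcript. NODAL and INHBA were well under the threshold. Of the growth and stress related members, GDF15 had 6.62, 7.53 and 11.5 FPKM.

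Of 13 receptors for these ligands in the table, 8 were expressed, near the 64.0% of all protein-coding genes, with a median of 1.46 FPKM against 3.31 FPKM. None of the 8 spread by 1.5-fold, against 12.8% of expressed genes. TGFBR1 and TGFBR2, the type I and type II receptors of TGF-β, had 12.7, 12.6 and 11.2 FPKM and 9.25, 9.48 and 11.9 FPKM. Both were near 10 FPKM in every library. The activin type I receptor ACVR1B had 9.52, 9.97 and 9.07 FPKM and the BMP receptors BMPR1A and BMPR2 4.05, 4.23 and 3.45 FPKM and 3.26, 3.62 and 2.85 FPKM. TGFBR3, the coreceptor betaglycan, was at the threshold with 1.14, 1.12 and 0.969 FPKM, and the endothelial receptors ACVRL1 and ENG were under it.

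Of 10 genes on the list of SMADs and adaptors, which also holds the adhesion gene CEACAM1, 7 were expressed, beside 64.0% of protein-coding genes. SPTBN1, the spectrin that acts as an adaptor of SMAD3, was the highest with 18.6, 19.9 and 19.7 FPKM, and it varied little between libraries. SMAD3 had 13.7, 14.3 and 18.0 FPKM and SMAD2, the other SMAD of TGF-β signals, 1.61, 1.56 and 1.59 FPKM. Among SMADs of BMP signals, SMAD5 had 8.41, 9.05 and 7.73 FPKM, SMAD1 2.32, 2.21 and 2.03 FPKM and SMAD9 0.351, 0.326 and 0.342 FPKM. The inhibitory SMAD7 had 6.21, 6.26 and 7.88 FPKM and SMAD6 0.572, 0.653 and 0.560 FPKM. SMAD3 was thus above SMAD2 and SMAD5 above SMAD1 and SMAD9 in every library. The adhesion molecule CEACAM1 was low but expressed, with 2.57, 2.60 and 2.83 FPKM. The common mediator SMAD4 was listed at 0.221, 0.182 and 0.206 FPKM, from 49, 41 and 40 reads over 13123 bases of exon. Part of these exons, 7.37% of the bases, is shared with another gene on the same strand. Protein-coding genes that share up to 10% of their exon bases had a median of 4.16 FPKM, against 3.56 FPKM where none was shared. Whether the listed value shows the level of SMAD4 RNA was not tested. SMAD4 had the lowest level of its list in every library.

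**Figure D4:**
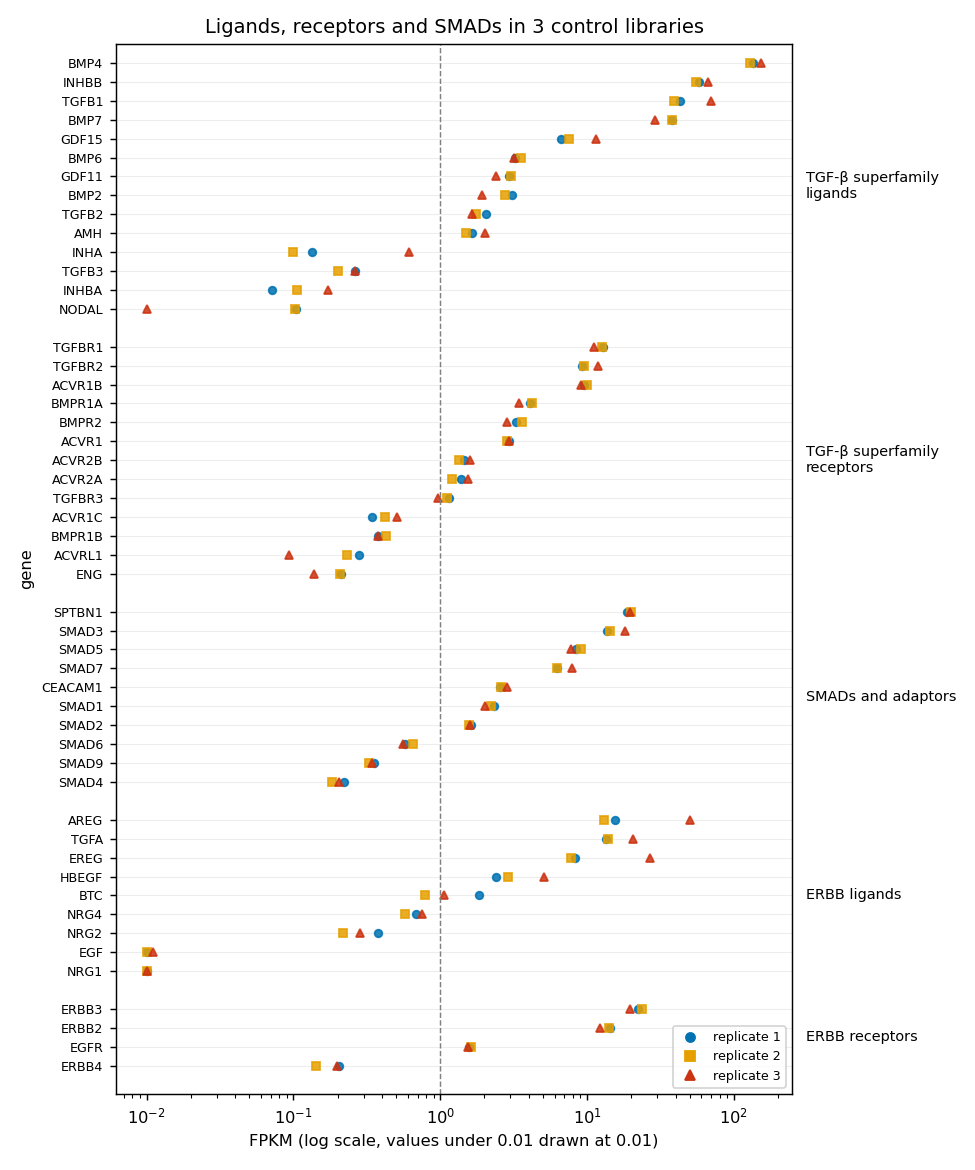
Level in FPKM (log scale, values under 0.01 drawn at 0.01) of every listed TGF-β superfamily ligand and receptor, SMAD or adaptor, and ERBB ligand and receptor in the 3 control libraries, with the threshold of 1 FPKM as a dashed line. BMP4 is the highest of these genes, and replicate 3 is set apart for AREG and EREG.

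Ligands of the ERBB receptors showed the widest spread of the signalling lists. All 4 that were expressed, of 9 in the table, differed at least 1.5-fold between libraries, against 12.8% of expressed genes, and none did between replicates 1 and 2. AREG had 15.5, 12.96 and 50.4 FPKM, TGFA 13.4, 13.9 and 20.4 FPKM, EREG 8.29, 7.73 and 26.7 FPKM and HBEGF 2.41, 2.87 and 5.08 FPKM. Each was highest in replicate 3, as were 41.3% of all expressed genes, and 21.7% of them after scaling to equal sums. EGF itself was listed at 0, 0.00950 and 0.0110 FPKM and NRG1 at 0.00521, 0.00514 and 0.00596 FPKM. Among the receptors ERBB3 had 22.1, 23.7 and 19.5 FPKM, ERBB2 14.4, 14.0 and 12.3 FPKM and EGFR 1.57, 1.62 and 1.55 FPKM, while ERBB4 was not expressed. The EGF receptor was therefore at a lower level than its ligands AREG and TGFA.

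Of 32 other receptor tyrosine kinases in the table, 17 were expressed, against 64.0% of all protein-coding genes. The ephrin receptor EPHA2 was the highest with 70.7, 69.6 and 113 FPKM. FGFR4, the main receptor of FGF19, had 36.2, 35.1 and 36.4 FPKM, the collagen receptor DDR1 23.2, 23.0 and 25.3 FPKM and the HGF receptor MET 15.1, 15.4 and 19.2 FPKM. EPHA2 was higher in replicate 3, and FGFR4 and DDR1 were level. IGF1R had 8.81, 9.70 and 9.95 FPKM and INSR 3.12, 3.34 and 3.44 FPKM. KIT, RET, ALK and the receptors of PDGF and VEGF (PDGFRA, PDGFRB, FLT1, KDR and FLT4) were below the threshold in all 3 libraries. Of 19 other growth factors in the table, 12 were expressed, near the 64.0% of all protein-coding genes. FGF19, an intestinal hormone of bile acid control, was the highest with 105, 100.4 and 118 FPKM. PDGFA had 44.9, 44.8 and 58.4 FPKM, the ephrin EFNB1 38.3, 37.4 and 58.5 FPKM and VEGFA 5.21, 4.92 and 10.3 FPKM. The ligands FGF19 and PDGFA were both abundant, and of their receptors FGFR4 was expressed and PDGFRA was not. HGF, the ligand of MET, was listed at 0, 0 and 0.00687 FPKM.

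WNT ligands were sparse, with 6 of 21 in the table expressed, against 64.0% of all protein-coding genes, and a median of 0.416 FPKM, against 3.31 FPKM. At a threshold of 0.5 FPKM 10 of them passed, beside 11395 of 16234 protein-coding genes. WNT10A had 18.3, 16.1 and 18.0 FPKM, WNT6 6.90, 6.29 and 4.87 FPKM and WNT11 3.47, 3.69 and 5.31 FPKM. WNT3A and the R-spondins RSPO2 and RSPO4 stayed at or under 0.1 FPKM in each library. Of 18 receptors 12 were expressed, near the 64.0% of all protein-coding genes. The coreceptor LRP5 had 57.6, 56.8 and 50.2 FPKM and LRP6 9.72, 9.93 and 8.69 FPKM, and the Frizzled receptors were led by FZD10 with 8.28, 7.66 and 15.4 FPKM and FZD6 with 5.71, 6.06 and 4.71 FPKM. Of 6 secreted inhibitors in the table, 4 were expressed, near the 64.0% of all protein-coding genes. NOTUM, an enzyme that inactivates WNT proteins by removing their lipid, had 276, 277 and 219 FPKM, DKK4 66.0, 64.5 and 65.7 FPKM, SFRP5 58.3, 54.4 and 43.4 FPKM and DKK1 28.6, 28.4 and 38.2 FPKM. These 4 inhibitors were all above the most abundant ligand in every library, whereas DKK3 had 0.490, 0.288 and 0.280 FPKM and SFRP4 0.229, 0.226 and 0.243 FPKM.

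Among Notch ligands 4 of 5 were expressed, led by JAG2 with 46.0, 45.3 and 51.3 FPKM and DLL3 with 10.8, 9.90 and 9.05 FPKM. Of 4 receptors NOTCH1, with 17.6, 19.0 and 11.9 FPKM, and NOTCH2, with 5.41, 6.26 and 5.81 FPKM, were expressed. NOTCH1 was lower in replicate 3. Of 9 hedgehog genes only the receptor PTCH1, with 3.29, 3.68 and 3.16 FPKM, and the transcription factor GLI3, with 1.33, 1.53 and 1.34 FPKM, passed the threshold, against 64.0% of all protein-coding genes, and 4 passed at 0.5 FPKM, beside 11395 of 16234 protein-coding genes. GLI1, a target that reports an active pathway, was listed at 0.112, 0.0969 and 0.273 FPKM and SHH at 0.527, 0.751 and 0.576 FPKM.

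Of 25 cytokines and chemokines in the table, 15 were expressed, near the 64.0% of all protein-coding genes. LTB, which encodes lymphotoxin β, had 259, 249 and 116 FPKM, CXCL1 145, 156 and 83.9 FPKM and CCL20 131, 133 and 61.9 FPKM. CXCL8, a chemokine for neutrophils, had 60.6, 60.3 and 44.96 FPKM, IL32 76.0, 74.0 and 72.3 FPKM, TNF 16.3, 14.1 and 6.04 FPKM and CCL2 14.5, 15.04 and 6.46 FPKM. Replicate 3 was the lowest for each of these 7 genes. In total 10 of the 15 spread at least 1.5-fold, against 12.8% of expressed genes, and 1 did between replicates 1 and 2. Replicate 3 was the lowest for 11 of the 15, or for 12 after scaling to equal sums, against 45.4% and 68.1% of all expressed genes. LIF and CSF2 went the other way, with 3.76, 3.54 and 7.80 FPKM and 2.85, 3.70 and 6.52 FPKM. IL6, IL1A and CXCL10 stayed under 0.1 FPKM. Of 29 cytokine and death receptors in the table, 20 were expressed, near the 64.0% of all protein-coding genes. The TNF receptors TNFRSF1B and TNFRSF1A had 46.7, 48.1 and 44.2 FPKM and 15.1, 13.7 and 18.1 FPKM, the TRAIL receptor TNFRSF10B 20.3, 19.1 and 28.1 FPKM and the receptor of lymphotoxin LTBR 8.76, 8.94 and 8.32 FPKM. The interferon receptor chain IFNAR1 had 14.5, 14.1 and 11.9 FPKM. Its partner IFNAR2 was listed at 0.115, 0.189 and 0.117 FPKM and IL10RB at 0.104, 0.128 and 0.119 FPKM, and both share exon bases with other genes, at 44.2% and 38.1%.

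Innate sensors were sparse, with 5 of the 15 in the table expressed, against 64.0% of all protein-coding genes. IFIH1, a sensor of double-stranded RNA, had 11.8, 11.7 and 11.6 FPKM and TMEM173, which encodes STING, 6.24, 5.40 and 4.68 FPKM. CGAS, the DNA sensor that acts before STING, had 1, 0 and 0 reads. No Toll-like receptor of the table was called expressed, and TLR3 was the highest of them with 0.580, 0.571 and 0.773 FPKM. Of 19 G protein-coupled receptors in the table, 5 were expressed, against 64.0% of all protein-coding genes. They were led by LPAR2 with 11.1, 12.2 and 14.4 FPKM and the protease-activated receptor F2RL1 with 10.5, 9.68 and 11.4 FPKM.

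Of 43 nuclear receptors in the table, 23 were expressed, against 64.0% of all protein-coding genes. The orphan receptor ESRRA was the highest with 63.5, 65.3 and 71.6 FPKM, followed by NR2F6 with 49.3, 45.9 and 54.3 FPKM and PPARD with 30.4, 28.4 and 44.3 FPKM. HNF4A, described above, came next. The vitamin D receptor VDR had 6.53, 6.24 and 3.95 FPKM, PPARG 1.76, 1.89 and 2.25 FPKM and the glucocorticoid receptor NR3C1 0.657, 0.514 and 0.721 FPKM. The estrogen receptor gene ESR1 was near 0, with 0, 0.00420 and 0 FPKM.

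Genes of housekeeping, repair and division were expressed throughout. All 14 reference genes passed the threshold, against 64.0% of all protein-coding genes, from TBP with 6.62, 7.48 and 6.49 FPKM to GAPDH. HPRT1 had 69.4, 69.2 and 70.9 FPKM and SDHA 47.4, 45.2 and 44.4 FPKM, whereas PGK1 had 186, 171 and 327 FPKM. PGK1 had a 1.5-fold spread, as 1 of 14 members against 12.8% of expressed genes, and none had it without replicate 3. All 8 mismatch repair genes were expressed, with MSH6 at 15.9, 15.95 and 10.8 FPKM and MSH3 at 5.46, 5.33 and 5.27 FPKM. MSH6 was lower in replicate 3 than in the others. All 14 cell division genes were expressed. PCNA, the sliding clamp of DNA replication, had 212, 211 and 124 FPKM, MCM2 36.2, 36.7 and 20.6 FPKM, TOP2A 47.9, 48.0 and 46.1 FPKM and MKI67 21.1, 25.03 and 18.8 FPKM. PCNA and MCM2 were lower in replicate 3, and TOP2A was level. Of 16 colorectal cancer driver genes 15 were expressed, and SMAD4, whose listed value may not show its RNA level, was below the threshold. APC, which restrains β-catenin, had 4.32, 4.77 and 3.61 FPKM, PIK3CA 2.00, 1.94 and 2.01 FPKM and CDKN2A 27.9, 26.3 and 33.3 FPKM.

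Glycolysis genes were abundant, with 20 of 22 expressed, against 64.0% of all protein-coding genes, and a median of 42.3 FPKM, against 3.31 FPKM. Besides GAPDH, ENO1 had 882, 842 and 1123 FPKM, TPI1 577, 543 and 749.9 FPKM and LDHA 282, 263 and 473 FPKM. The glucose transporters SLC2A1 and SLC2A3 had 283, 261 and 619 FPKM and 66.9, 56.2 and 228 FPKM. Replicate 3 was the highest for 19 of the 20 expressed members, or for 16 after scaling to equal sums, against 41.3% and 21.7% of all expressed genes. A total of 10 of them spread at least 1.5-fold, against 12.8%, and none did between replicates 1 and 2. ALDOA was listed at 3.33, 2.48 and 5.70 FPKM and shares 42.3% of its exon bases with other genes. Of 14 antigen presentation genes 10 were expressed, beside 64.0% of all protein-coding genes. HLA-C had 208, 196 and 187 FPKM and B2M 43.9, 42.5 and 39.4 FPKM. The class II gene HLA-DRA had 28.8, 31.4 and 14.8 FPKM although its activator CIITA was listed at 0.310, 0.328 and 0.0618 FPKM, and both were lower in replicate 3. Of 7 cancer-testis antigens in the table MAGEC2 was expressed, with 9.40, 9.68 and 7.52 FPKM, and MAGEA6 was listed at 0 in all 3 libraries. At a threshold of 0.5 FPKM 3 of the 7 passed, beside 11395 of 16234 protein-coding genes.

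Stability over the replicates was described next. Over expressed genes the median coefficient of variation, the SD over the mean of the 3 libraries, was 0.093, and it was 0.0376 without replicate 3. A total of 1494 of 11652 expressed genes (12.8%) differed at least 1.5-fold between their highest and lowest library, and 354 differed at least 2-fold. Without replicate 3 these numbers were 161 and 42 over the same genes, and 179 genes spread 1.5-fold among those expressed in the other libraries. Of all lists, only the differentiated intestinal genes and the cytokines then had an expressed member with a 1.5-fold spread, 1 each. Replicate 3 was the highest library for 913 of the 1494 genes and the lowest for 502 of them, but after scaling to equal sums it was the highest for 521 and the lowest for 1332 of 1935 genes with such a spread. Rank correlations over expressed genes, which are not independent replicates, were 0.994 between replicates 1 and 2, 0.973 between replicates 1 and 3 and 0.972 between replicates 2 and 3.

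The spread differed between gene classes. It reached 1.5-fold for 28 of 30 expressed genes of the mitochondrial genome, 256 of 688 long noncoding RNAs, 145 of 486 pseudogenes and 1010 of 10372 protein-coding genes of the nucleus. Without replicate 3 these numbers were 7, 52, 48 and 33. The median coefficient of variation of the mitochondrial genes was 0.390 with replicate 3 and 0.0621 without it, below the 0.0796 of long noncoding RNAs and the 0.0880 of pseudogenes. By level, it did so for 16.2% of expressed genes with a mean below 10 FPKM, 7.33% of those from 10 to 100 and 12.1% of those at 100 or more. Without replicate 3 it did so for 2.16%, 0.212% and 0%, so the low levels spread most in both cases and the larger share at the highest levels rests on replicate 3. Over 10385 expressed protein-coding genes, the rank correlation of gene length was -0.0789 with the log2 difference of replicate 3 from the others and 0.2505 with that of replicate 2 from replicate 1, as a description with no test.

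**Figure D5:**
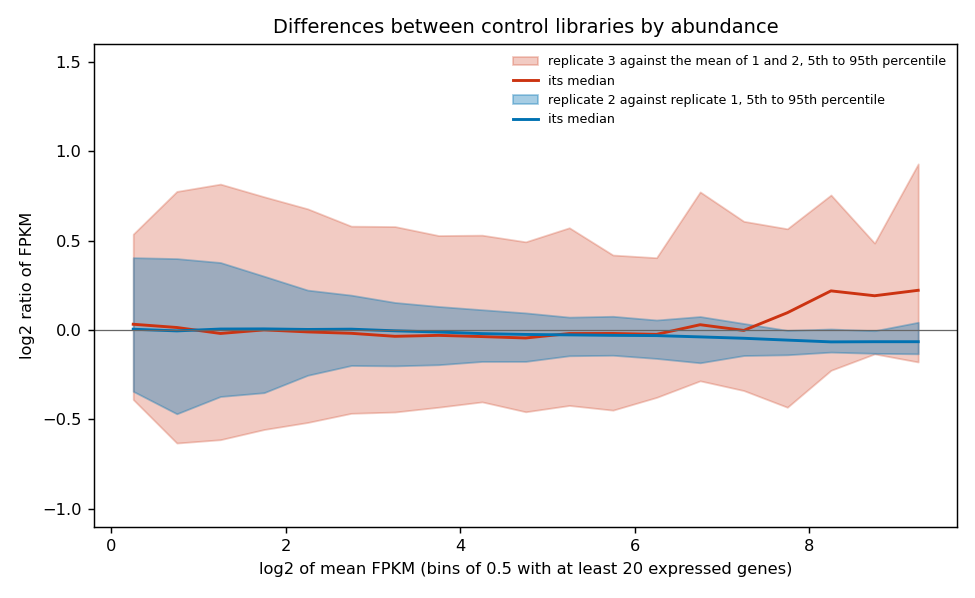
Log2 ratio of FPKM between control libraries against the log2 of mean FPKM, as medians (lines) and 5th to 95th percentiles (bands) over expressed genes in bins of 0.5, for replicate 2 against replicate 1 and for replicate 3 against the mean of replicates 1 and 2. The band of replicate 3 is the wider at every level.

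Among genes with at least 10 FPKM in each library, the 10 with the largest spread were set apart by replicate 3. The noncoding RNA IGFL2-AS1 had 17.4, 13.5 and 64.7 FPKM, a 4.81-fold range. The carbonic anhydrase gene CA9 had 23.3, 19.7 and 86.0 FPKM, a 4.37-fold range, and SLC2A3 a 4.07-fold range. The collagen prolyl hydroxylase P4HA1 had 15.7, 13.3 and 36.9 FPKM and the metallothioneins MT2A and MT1E, which bind metal ions, 42.9, 34.4 and 107 FPKM and 13.1, 10.9 and 30.6 FPKM. AREG, TFF3 and MT-RNR2, given above, were the other members that were high in replicate 3. TRBJ2-3, a joining segment of the T cell receptor locus, was the only one that was low there, with 60.3, 64.2 and 19.3 FPKM from 50, 54 and 14 reads. Replicates 1 and 2 were closer to each other than to replicate 3 for all 10 genes.

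At the other end BCOR, a transcriptional corepressor, had 18.6, 18.6 and 18.6 FPKM, the mitochondrial chaperone TRAP1 43.0, 43.0 and 43.0 FPKM and the potassium chloride cotransporter SLC12A7 58.5, 58.5 and 58.6 FPKM. The 10 smallest ranges of highest to lowest library lay between 1.001 and 1.007 and were completed by P3H4, PRMT5, RNF40, ETV4, MOGS, UBE4A and ARHGAP1. These values are the smallest of 4245 genes and lie within counting error.

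After scaling to equal sums replicate 3 was still the highest library for all 4 expressed ERBB ligands. It was the lowest for all 10 expressed antigen presentation genes, 9 of them as deposited, against 68.1% and 45.4% of all expressed genes. It was also the lowest for all 8 mismatch repair genes, 7 of them as deposited, and for all 3 expressed ERBB receptors on both scales. After this scaling the median log2 difference of replicate 3 was 1.16 for the ERBB ligands, 0.33 for glycolysis genes and -0.38 for antigen presentation genes. It was -0.47 for mismatch repair genes, -0.39 for ERBB receptors and -0.61 for cytokines and chemokines, against -0.20 for all expressed genes. The labels do not say how replicate 3 differed in handling, and the part of culture, RNA or sequencing in its difference was not tested.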

How the data were processed

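Gene levels were the FPKM values deposited by the authors for 25733 genes, of which the columns of the 3 control libraries were used. The submitters' processing notes name Trimmomatic 0.36, STAR 2.5.2b with GRCh38, featureCounts of Subread 1.5.2 and DESeq2, whereas the study's methods name HTSeq for counting. Exon lengths from GENCODE 29 returned whole reads from the FPKM values within 0.001. Libraries held 16647681, 16700597 and 15298508 reads. A gene was expressed at 1 FPKM or more in each library, and its spread was its highest over its lowest library. Pairs of libraries were compared over genes with at least 20 reads. Ribosomal proteins were symbols of RPL or RPS followed by digits only, with a few other symbols of such proteins, among them RPLP0, RPLP1, RPLP2, RPSA and FAU. This rule left out RPL13A, so the set is not the whole family. Most named genes were drawn from the 20 most abundant protein-coding genes, the 5 most abundant noncoding genes and the members of the lists. Some others came from the 10 genes with the largest and the 10 with the smallest spread at 10 FPKM or more. Not all genes of these sets are named. Members and lists were chosen with earlier results of these data known. There was 1 group, so no test between groups was made. The steps were tested on simulated data and run with Python 3.11.15, numpy 2.4.6, pandas 2.3.3 and scipy 1.17.1, and plots were drawn with matplotlib 3.10.9. Alternatives were other thresholds, reads or TPM in place of FPKM, and leaving out each library.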

Additional observations from a re-analysis of the deposited data

How the results depend on the processing

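Of 40 alternative values of the 7 main results, 25 stayed within their limit and 15 moved. The limit for counts was 1.5-fold, which is wide. Within it, 14741 genes were expressed at a TPM of at least 1, against 11652 at the same FPKM. With at least 10 reads in each library as the rule, 14722 genes were expressed, so the number expressed depends on the scale. A threshold of 5 FPKM left 6809 genes expressed, and one of at most 0.1 FPKM gave 3911 genes in place of those at 0. With reads in place of FPKM, the 100 most abundant genes held 20.98% and KRT8 and KRT18 held 69.2% of keratin reads, both by the weight that length then has. Without genes of the mitochondrial genome the 100 most abundant genes held 24.2%. The number of genes with a 1.5-fold spread was 259 at 10 FPKM or more and 354 at a 2-fold limit. The lowest rank correlation between libraries was 0.934 over all genes and 0.939 over genes of 10 FPKM or more, and the cause was not tested. Leaving out each library in turn gave 11829 to 11900 genes expressed, 778 to 930 genes at 0, a median coefficient of variation of 0.0376 to 0.101, 179 to 1240 genes with a 1.5-fold spread, and a lowest rank correlation of 0.972 to 0.993, the last chosen after seeing the data. Values of 0.0376, 179 and 0.993 were those without replicate 3. Of 76 expressed counts of lists under other thresholds 70 stayed within 1.5 times the reported count, and with a library left out, also chosen after seeing the data, 113 of 114 did. The spreads of classes and lists without replicate 3 were likewise chosen after seeing the data. No paired analysis was possible because a single group with no second condition was described. The libraries come from 1 cell line, depth limits a gene with 1 kb of exon to about 0.175 to 0.202 FPKM at 0 reads, and genes with shared exons or near-identical copies have uncertain levels.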
